A study of Mus musculus with 12 samples.

Results

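The genes described here are 10 genes that mark neutrophils or draw them into a tissue. The list was given by symbol, with earlier results of these data known, and no measured value enters the rule that picks its rows: S100a8, S100a9, Cxcr2, Csf3r, Ly6g, Retnlg, Il1b, Cxcl1, Cxcl2 and Csf3. All 10 were found among the 30630 mouse genes listed for each tumor. RNA-Seq was performed on tumors of CT-26, a murine colon carcinoma line, grown in Matrigel under the skin of the right flank of male BALB/c mice that were 4 to 6 weeks old when bought. The control group held 6 tumors from mice without training, and the swimming group held 6 tumors from mice trained by swimming 2 times daily, 6 days per week, over 3 weeks. Mice of both groups carried the same transplanted line, no genetic change to the hosts was named, and each tumor came from a different mouse out of 10 per group. The comparison addresses whether these genes differed between tumors of mice that swam and tumors of mice that did not.

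Neutrophils are short-lived granulocytes that are made in the bone marrow, for which the cytokine G-CSF (Csf3) and its receptor (Csf3r) are needed. They leave the blood along gradients of chemokines such as CXCL1 and CXCL2, which are sensed by the receptor CXCR2. In the cell they carry large amounts of the calcium-binding proteins S100A8 and S100A9, which form the complex calprotectin, and in tumors they occur beside macrophages, which make several of the same products, IL-1β among them.

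The values were FPKM, that is, fragments scaled by transcript length and by the mapped reads of the tumor, so levels can be compared between genes per length. Between 22293 and 23974 genes were above 0 in a tumor, and the absolute depth is unknown. Depth relative to control 1 was estimated from the most frequent ratio between weak FPKM values of control 1 and of each tumor. This estimate was 0.690 in control 2 and 0.868 or more in the other tumors. For tests, log2(FPKM + 1) was compared in limma over the 19018 genes that reached 0.1 FPKM in 6 or more tumors. On this scale the fold changes of weakly expressed genes are understated. Of these genes, 0 had an adjusted p below 0.05 (Benjamini-Hochberg), the smallest adjusted p was 0.2045 with limma, and 1058 genes had an unadjusted p below 0.05, which is 5.56% of the genes tested.

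S100a8 lies on chromosome 3 at 90668978 to 90670035 on the plus strand (GRCm38, GENCODE), and S100a9 lies on the minus strand at 90692632 to 90695721, with 22596 bases between both genes. Cxcl1 (chromosome 5, 90891241 to 90893115) and Cxcl2 (chromosome 5, 90903871 to 90905938) are neighbours on the plus strand with 10755 bases between them. These pairs of neighbours are shown with the sequence before their first annotated base. They were chosen because the levels of both members of each pair moved together between tumors, as given further on. Cxcl1 moved about as closely with S100a9, Il1b and S100a8 as with Cxcl2. Any part of the sequences in this was not tested. The sequences are from RefSeq on GRCm38.p6 and are read 5′ to 3′ on the strand of the gene. In Cxcl1 (chr5:90890995-90891240, plus strand) and Cxcl2 (chr5:90903649-90903870, plus strand) the capitals mark GGGAATTTCC, the copy of the NF-κB motif that both windows hold. In S100a8 (chr3:90668821-90668977, plus strand) and S100a9 (chr3:90695722-90695971, minus strand) the capitals mark TTNNGNAA on either strand, a loose form of the motif bound by C/EBP factors.
Cxcl1: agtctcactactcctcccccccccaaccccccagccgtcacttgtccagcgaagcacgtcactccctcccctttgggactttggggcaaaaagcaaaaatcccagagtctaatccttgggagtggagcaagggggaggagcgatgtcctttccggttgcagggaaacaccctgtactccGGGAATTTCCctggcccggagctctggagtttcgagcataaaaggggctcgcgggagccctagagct
Cxcl2: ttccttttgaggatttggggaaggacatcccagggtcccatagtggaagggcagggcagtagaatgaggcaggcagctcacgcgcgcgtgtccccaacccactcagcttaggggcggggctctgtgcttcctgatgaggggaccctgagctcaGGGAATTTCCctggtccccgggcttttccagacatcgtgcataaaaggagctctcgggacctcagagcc
S100a8: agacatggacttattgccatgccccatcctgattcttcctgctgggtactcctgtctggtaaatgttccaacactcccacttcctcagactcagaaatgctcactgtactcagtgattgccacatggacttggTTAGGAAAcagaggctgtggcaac
S100a9: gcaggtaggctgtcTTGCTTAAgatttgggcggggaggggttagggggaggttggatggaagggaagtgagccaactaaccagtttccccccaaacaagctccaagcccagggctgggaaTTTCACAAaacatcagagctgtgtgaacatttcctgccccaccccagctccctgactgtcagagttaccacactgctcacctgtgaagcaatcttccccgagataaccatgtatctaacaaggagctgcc

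The copy GGGAATTTCC, searched on both strands, started 71 bases before the RefSeq start of Cxcl1 and 97 bases before that of Cxcl2. These letters were chosen because both windows hold them, so finding them in both, and in a shared stretch, was set by that choice. They are part of the longest stretch that both sequences share, GGGAATTTCCCTGG, with 14 bases. The same letters were found 73 bases before the start of Cxcl3, the closest relative of Cxcl2, and in 28 of 32851 RefSeq windows of 250 bases before a start, or 0.0852%, while a looser form, with any base in place of AA, was found in 1.41% of them. TTNNGNAA was found in 36.8% of these windows, so that its presence before S100a8 and S100a9 is common to many genes. The longest stretch shared by the windows of S100a8 and S100a9 was 7 bases. GGGAATTTCC was not found in the window of Il1b. These matches describe letters in a window and show no binding.

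S100a8 and S100a9 varied several-fold between tumors of the same group, and no difference between the groups was detected. S100a9, the larger subunit of calprotectin, was measured between 2.21 FPKM in control 2 and 22.4 FPKM in control 5, a ratio of 10.1 over the 12 tumors. Its lowest, median and highest FPKM were 2.21, 5.71 and 22.4 in control tumors and 4.17, 7.45 and 21.7 in swimming tumors. Control 1, control 5 and swimming 6 stood high, at 22.3, 22.4 and 21.7 FPKM, while the next tumor, swimming 1, was at 10.8 FPKM, so that high tumors occurred in both groups and the groups overlapped. The mean was 10.1 ± 9.57 FPKM in control tumors and 9.47 ± 6.39 FPKM in swimming tumors (SD, n = 6 each; log2 fold change 0.20, SE 0.53, 95% confidence interval -0.95 to 1.34, adjusted p = 0.979 with limma).

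S100a8, the smaller subunit, had a lowest, median and highest FPKM of 1.90, 3.96 and 15.5 in control tumors and 3.60, 4.08 and 13.8 in swimming tumors. Control 5 and swimming 6 were high, and 5 of the 6 swimming tumors lay close together, between 3.60 and 5.80 FPKM. The group means were 5.91 ± 5.08 and 5.85 ± 3.98 FPKM (SD, n = 6 each; log2 fold change 0.11, 95% confidence interval -0.77 to 0.98, adjusted p = 0.985 with limma). Both intervals include 0 and are wide, so a change within them could not be told from the spread between tumors.

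Both calprotectin genes rose and fell together from tumor to tumor. Over the 12 tumors Pearson's r between S100a8 and S100a9 on log2(FPKM + 1) was 0.915 (permutation p = 4e-05, adjusted over 6 relations 0.00024), and Spearman's rho was 0.818 (permutation p = 0.00181, adjusted 0.0109). Without control 5 and swimming 6, the tumors farthest from the median of S100a8, r was 0.902 (permutation p = 0.00067). Within the groups r was 0.920 in control tumors and 0.912 in swimming tumors. With each tumor left out in turn, r stayed between 0.897 and 0.940 and the adjusted permutation p between 0.00012 and 0.00096. The ratio of S100a9 to S100a8 was not constant, and it ranged from 0.824 in control 2 to 2.98 in control 1.

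The receptors were weakly expressed. Csf3r, the receptor of G-CSF (chromosome 4, 126024550 to 126044440), was the steadiest member, with a ratio of 2.41 between the highest and the lowest tumor and a lowest, median and highest FPKM of 1.80, 2.62 and 4.33 in control tumors and 2.01, 3.22 and 3.80 in swimming tumors. Control 1 was the highest tumor, and 5 of 6 swimming tumors lay above the control median. The means of 2.69 ± 0.884 and 3.10 ± 0.687 FPKM (SD, n = 6 each) did not differ beyond this spread (log2 fold change 0.16, 95% confidence interval -0.17 to 0.50, adjusted p = 0.934 with limma).

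Cxcr2, the receptor of CXCL1 and CXCL2 (chromosome 1, 74153989 to 74161246), was below 1 FPKM in every tumor. Its lowest, median and highest FPKM were 0.05, 0.163 and 0.69 in control tumors and 0.17, 0.280 and 0.38 in swimming tumors. All 6 swimming tumors were above the control median, and all of them were also within the control range, because control 1 was high. The means were 0.256 ± 0.240 and 0.275 ± 0.0727 FPKM (SD, n = 6 each; log2 fold change 0.039, 95% confidence interval -0.18 to 0.26, adjusted p = 0.979 with limma). At this low level the estimate depends on the pseudocount, and it was 0.29 with 0.1 and 0.52 with 0.01 in place of 1, with unadjusted p of 0.433 and 0.331 in limma. Of the windows of 50 bases in the annotated transcripts, 6.68% for Cxcr2 and 10.7% for Csf3r also occur in transcripts of other genes, so part of these low values is uncertain.

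Ly6g and several other genes of the neutrophil list were at or near 0, and some further genes of the list were measured at higher levels. Ly6g, the surface protein by which mouse neutrophils are usually sorted (chromosome 15, 75155240 to 75159126), was listed at 0 in 10 of 12 tumors, at 0.18 FPKM in control 1 and at 0.06 FPKM in swimming 1. It passed 0.1 FPKM in 1 tumor and was not among the genes tested. Of 36 other neutrophil genes, 35 were listed and 24 were tested. Cxcr1 and the granule enzyme Mpo were below 0.1 FPKM in all tumors. The granule genes Camp and Ltf reached 0.32 and 0.16 FPKM at most. Elane, Cd177, Padi4 and Ngp reached 0.18, 0.14, 0.43 and 0.53 FPKM at most. Other genes of the list, named after their values were seen, were measured at higher levels. Means in the control and swimming tumors were 9.52 and 10.3 FPKM for the protease gene Mmp9 and 4.65 and 5.81 FPKM for the receptor gene Fpr2. They were 4.79 and 4.17 FPKM for the lectin gene Clec4d. The granule gene Mmp8 was below 1 FPKM in both means, at 0.785 and 0.576 FPKM. S100a8, S100a9, Il1b and Cxcl1, which had the highest mean FPKM of the 10 genes, are also made by other cells. The values do not say which cells these genes, or Mmp9, Fpr2 and Clec4d, came from. In bulk tissue fewer cells of a type and less RNA per cell cannot be told apart. The low values therefore do not say how many neutrophils a tumor held.

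Retnlg, a resistin-like peptide made by neutrophils and their precursors (chromosome 16, 48872621 to 48874496), was the member closest to a difference and the only tested member with a negative estimate. Its lowest, median and highest FPKM were 0.42, 0.663 and 2.65 in control tumors and 0.10, 0.373 and 0.69 in swimming tumors. Control 1 stood far above the other tumors, swimming 2 and swimming 3 were lowest, and 5 of 6 swimming tumors were below the control median, but the groups overlapped. The means were 0.951 ± 0.846 and 0.383 ± 0.223 FPKM (SD, n = 6 each; log2 fold change -0.43, SE 0.20, 95% confidence interval -0.87 to 0.0079). The unadjusted p was 0.0537 with limma and 0.0411 by the exact permutation test, and the adjusted p of 0.889 with limma did not pass. With pseudocounts of 0.1 and 0.01 the estimate was -1.01 and -1.23, and the unadjusted p were 0.0323 and 0.0313 with limma. Without control 1 it was -0.23 (unadjusted p = 0.0608 with limma).

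Control 1 was also high in genes of fat tissue. The summed level of 8 adipocyte markers, a list chosen after the values were seen, was 189 FPKM in control 1 against 7.20 to 16.7 FPKM in the other control tumors and 10.9 to 48.0 FPKM in swimming tumors. Adipoq, the fat cell hormone adiponectin, was at 12.6 FPKM in control 1 and at 0.74 FPKM or less in the other control tumors, and it was listed at 0 in control 3. Retn, the resistin gene itself, was at 5.86 FPKM in control 1 and at 0.27 FPKM or less in the other control tumors. The annotated transcripts of Retnlg share 0 windows of 50 bases with other genes. The highest summed levels of fibroblast and endothelial markers, 1169 and 61.6 FPKM, were also those of control 1. The part of these other cells in the high values of control 1 was not tested.

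Il1b, the gene of the inflammatory cytokine IL-1β (chromosome 2, 129364570 to 129371139, minus strand), had the second highest mean FPKM of the members, after S100a9. It was below S100a9 in 6 of 12 tumors. Its lowest, median and highest FPKM were 3.84, 5.47 and 9.23 in control tumors and 4.29, 8.78 and 13.03 in swimming tumors. Swimming 1, swimming 2, swimming 3 and swimming 6 were at 8.32 FPKM or more, among the control tumors only control 5 was, and the lowest swimming tumors, 4 and 5, were at 4.29 and 4.53 FPKM. The means of 5.93 ± 1.85 and 8.36 ± 3.45 FPKM (SD, n = 6 each) did not differ beyond this spread (log2 fold change 0.38, SE 0.25, 95% confidence interval -0.15 to 0.92, unadjusted p = 0.147, adjusted p = 0.901 with limma). Exons of Il1b overlap the antisense gene Il1bos, and the sources used here do not say whether reads were counted by strand, so reads of both cannot be told apart.

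Of the chemokines, Cxcl1 had the larger estimate and, after S100a9, the widest interval of the 8 members tested. Cxcl1, which draws neutrophils through CXCR2, had a lowest, median and highest FPKM of 1.58, 3.72 and 8.12 in control tumors and 2.08, 4.16 and 16.1 in swimming tumors. Swimming 1 and swimming 6, at 16.1 and 10.2 FPKM, were above every control tumor, and the other 4 swimming tumors, of which swimming 5 was lowest at 2.08 FPKM, lay inside the control range. The means were 4.12 ± 2.55 and 6.58 ± 5.51 FPKM (SD, n = 6 each; log2 fold change 0.43, SE 0.44, 95% confidence interval -0.51 to 1.37, adjusted p = 0.934 with limma). The larger swimming mean came from these 2 tumors, and 3 of 6 swimming tumors were above the control median.

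Cxcl2, its close relative, had a lowest, median and highest FPKM of 0.61, 1.32 and 2.94 in control tumors and 0.49, 1.40 and 3.11 in swimming tumors. Swimming 3, swimming 6 and control 5 were high, and the lowest tumor was swimming 5. The means were 1.43 ± 0.872 and 1.72 ± 1.15 FPKM (SD, n = 6 each; log2 fold change 0.12, 95% confidence interval -0.49 to 0.74, adjusted p = 0.978 with limma). Of the transcript windows of Cxcl2, 5.84% also occur in Cxcl3, which was at 0.17 to 1.56 FPKM. Csf3, which encodes G-CSF (chromosome 11, 98701263 to 98703629), was listed at 0 in 6 tumors and reached 0.17 FPKM in swimming 3 and swimming 6 and 0.08 FPKM in control 1. It was too low for the test, and the exact permutation p was 0.260.

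**Figure D1:**
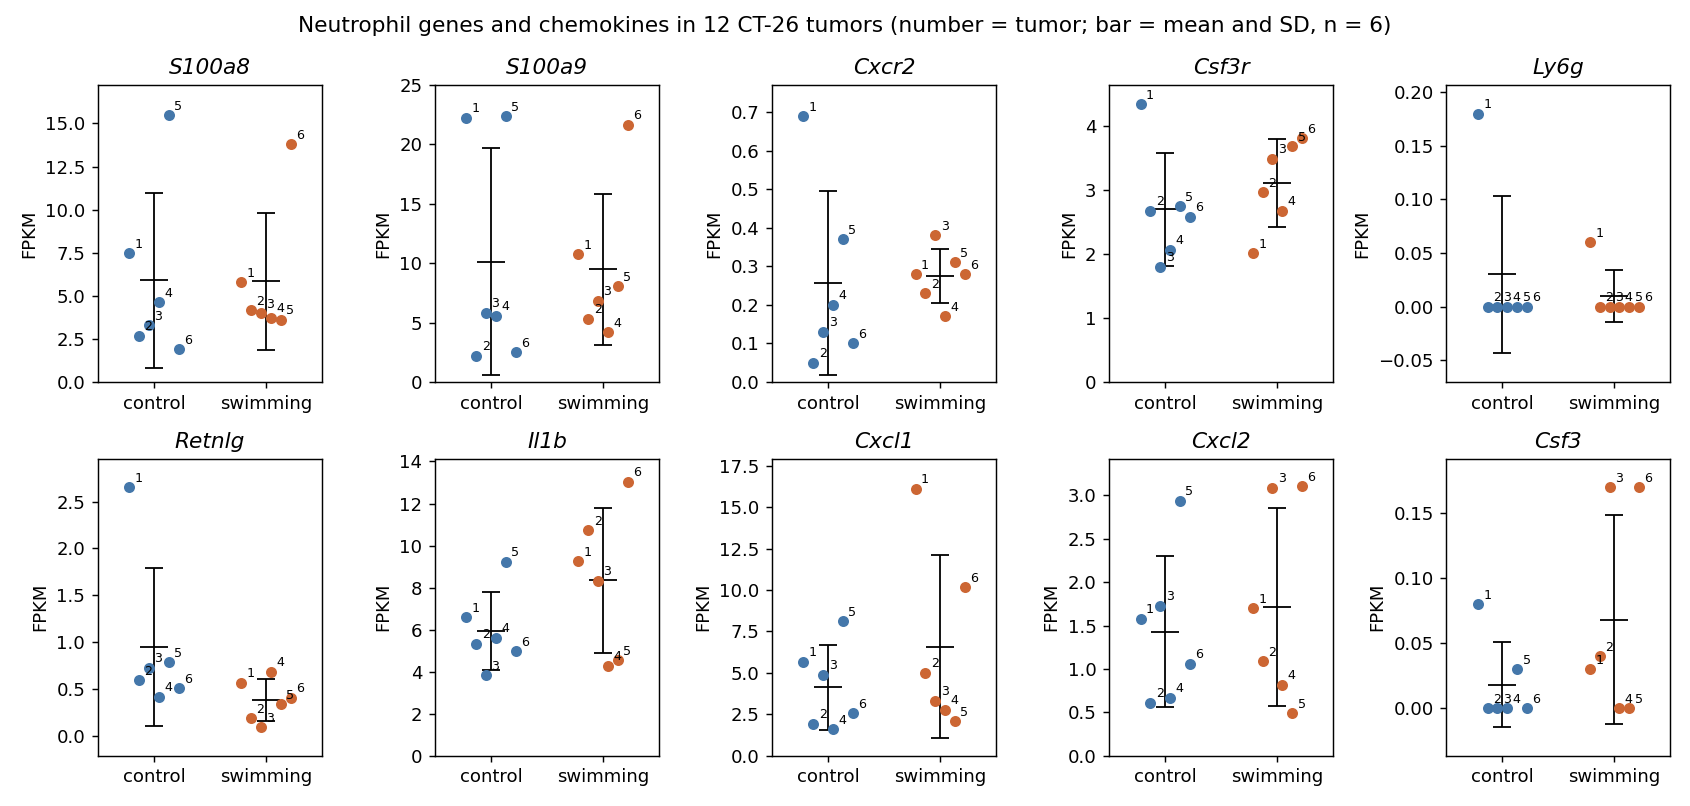
FPKM of the 10 genes (vertical axes, a different range for each gene) in 6 control tumors (blue) and 6 swimming tumors (orange). Each point is a tumor with its number, and the bar is the mean with the SD (n = 6). The groups overlap for every gene, Ly6g is at 0 in 10 tumors, and control 1 stands alone for Retnlg at 2.65 FPKM.

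Of the 10 genes, 8 could be tested, and 0 of these 8 had an unadjusted p below 0.05 with limma, against 5.56% of all genes tested. At an adjusted p below 0.05 the counts were 0 of 8 and 0% of all genes tested. Their log2 fold changes had a median of 0.14, and 7 of the 8 estimates were above 0, where the median over all genes tested was 0.0039 and 9832 of the 19018 estimates were above 0. The estimates of S100a8, S100a9, Cxcr2 and Cxcl2 fell below 0 with certain single tumors left out. No p belongs to this median, since the 8 genes are measured in the same tumors and move together in part.

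**Figure D2:**
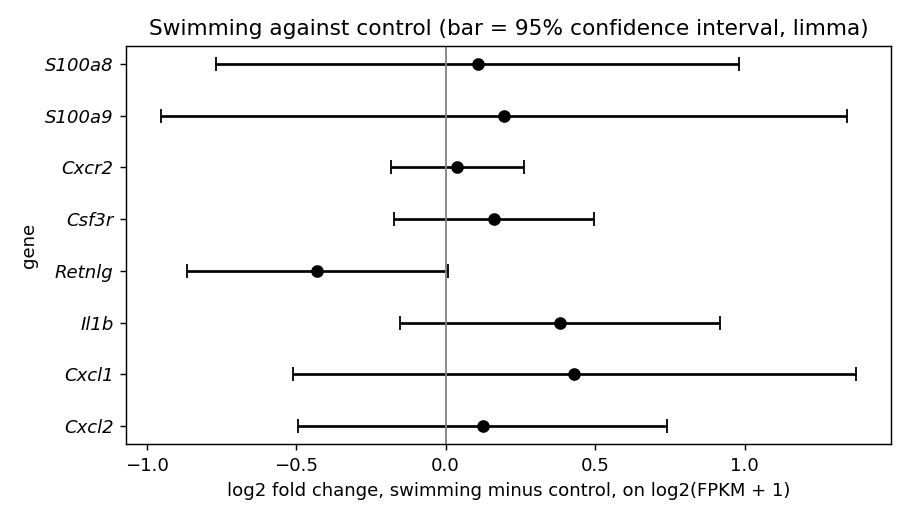
Log2 fold change, swimming minus control, on log2(FPKM + 1) (horizontal axis) for the 8 genes tested. Points are limma estimates and bars are 95% confidence intervals. All intervals include 0, that of Retnlg ends at 0.0079, and that of Cxcl1 reaches 1.37.

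The spread between tumors of a group was larger than for most genes of like level. The residual SD on the log2 scale was 1.04 for S100a9, 0.86 for Cxcl1 and 0.79 for S100a8. Among the genes whose mean level was within a factor of 2, the median residual SD was 0.14 for S100a9 and 0.15 for Cxcl1 and S100a8, and 99.4%, 99.1% and 98.9% of them had a smaller one. For Il1b, Cxcl2 and Retnlg the share was 96.3%, 95.6% and 91.2%. Csf3r and Cxcr2 were nearer to other genes, with shares of 81.9% and 69.0%.

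Ordered by the mean FPKM over the 12 tumors, the genes were S100a9 (9.80), Il1b (7.14), S100a8 (5.88), Cxcl1 (5.35), Csf3r (2.90), Cxcl2 (1.57), Retnlg (0.667), Cxcr2 (0.265), Csf3 (0.0432) and Ly6g (0.0200). Neighbours in this order differed by more than the larger of their SDs only for Csf3r over Cxcl2, which held in 11 of 12 tumors, and for Cxcr2 over Csf3, which held in 12 of 12 tumors. Between neighbours from S100a9 down to Csf3r no order could be given by this measure. S100a9 was above Il1b in 6 of 12 tumors, and Cxcl1 was above Csf3r in 7 of 12.

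The same few tumors were high for most of the genes. Control 5 and swimming 6 were each among the 3 highest tumors for 6 of the 8 genes tested, and control 1 was for 5 of them. Controls 2, 4 and 6 and swimming 4 were among the 3 highest tumors for 0 of the 8 genes. Control 1 was highest for both receptors, Cxcr2 and Csf3r, and for Ly6g and Retnlg, control 5 for S100a8 and S100a9, and swimming 6 for Il1b and Cxcl2. Swimming 1 was highest for Cxcl1 alone. The summed level of the 7 genes of the neutrophil cell ranged from 12.6 FPKM in control 6 to 53.0 FPKM in swimming 6, and that of Cxcl1, Cxcl2 and Csf3 from 2.25 FPKM in control 4 to 17.9 FPKM in swimming 1.

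**Figure D3:**
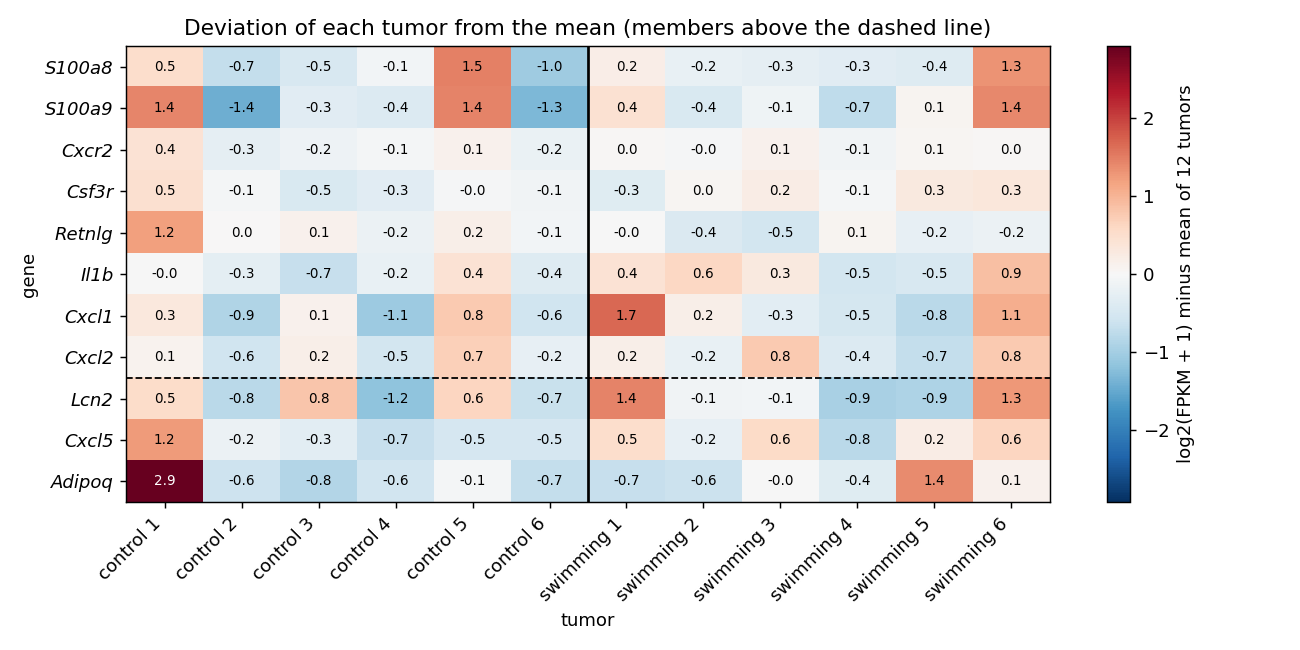
Difference of log2(FPKM + 1) from the mean of the 12 tumors for the 8 genes tested and, below the dashed line, Lcn2, Cxcl5 and Adipoq. Columns are tumors, with controls left of the solid line, and red is above and blue below the mean. Control 1, control 5 and swimming 6 are red for S100a9, at 22.3, 22.4 and 21.7 FPKM, and Adipoq is high in control 1 at 12.6 FPKM.

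The chemokines Cxcl1 and Cxcl2 also moved together, with less certainty than the calprotectin genes. Over 12 tumors r was 0.682 (permutation p = 0.0156, adjusted over 6 relations 0.0381) and rho 0.776 (permutation p = 0.00462, adjusted 0.0139). When swimming 1 and swimming 6 were left out, r was 0.738 (permutation p = 0.0155), and r was 0.969 in control tumors and 0.505 in swimming tumors, a difference that was not tested. With 1 tumor left out in turn r was 0.615 to 0.828, and the adjusted permutation p, 0.00525 to 0.0644, was above 0.05 without control 1, 2, 4 or 5 or swimming 4, 5 or 6. The ratio of Cxcl1 to Cxcl2 ranged from 1.07 in swimming 3 to 9.51 in swimming 1. Swimming 3 was at 3.09 FPKM for Cxcl2 with 3.32 FPKM for Cxcl1, and swimming 1 was at 1.70 FPKM for Cxcl2 with the highest Cxcl1 of all tumors.

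Of the remaining 4 relations, Cxcr2 with Csf3r and Il1b with Cxcl2 had an adjusted p below 0.05. For Cxcr2 with Csf3r, r was 0.649 (permutation p = 0.0199, adjusted 0.0381) and rho 0.643 (permutation p = 0.0276, adjusted 0.0332). Without control 1 and control 2 it was 0.536 (permutation p = 0.113, unadjusted). A weaker relation cannot be told here from the smaller number of tumors. Without control 2 alone the adjusted permutation p stayed below 0.05. Within the groups r was 0.775 and 0.379 (control and swimming), and with 1 tumor left out it was 0.459 to 0.724. The adjusted permutation p of these fits (0.0212 to 0.188) was above 0.05 without control 1, 3, 4 or 5 or swimming 4, 5 or 6.

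For Il1b with Cxcl2, r was 0.649 (permutation p = 0.0254, adjusted 0.0381), but rho was 0.545 (permutation p = 0.0726, adjusted 0.0726). It was 0.685 when swimming 2 and swimming 6 were left out (permutation p = 0.0328), 0.521 among the control tumors and 0.736 among the swimming tumors. Leaving out 1 tumor gave r between 0.538 and 0.769 and an adjusted permutation p of 0.0236 to 0.109, which was below 0.05 only without control 3, swimming 2 or swimming 3.

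The last relations had no adjusted p below 0.05 for r. For Cxcr2 with S100a8, receptor and calprotectin, r was 0.578 (permutation p = 0.0511, adjusted 0.0613) and rho 0.692 (permutation p = 0.015, adjusted 0.03). It was 0.610 without control 1 and control 2 (permutation p = 0.0597), 0.728 within the control group and 0.055 within swimming tumors. For Csf3 with Cxcl1, r was 0.403 (permutation p = 0.192, adjusted 0.192) and rho 0.664 (permutation p = 0.0225, adjusted 0.0332), with Csf3 at 0 in 6 tumors. It was 0.589 without swimming 3 and swimming 6 (permutation p = 0.0687), 0.628 in control tumors and 0.253 in swimming tumors.

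The genes most like Cxcl1 across tumors were headed by Lcn2, lipocalin-2, an iron-binding protein of neutrophil granules that epithelial and other cells also make. Its r with Cxcl1 over 12 tumors was 0.947, given as a description among 12790 genes compared. Lcn2 was at 8.15 and 7.04 FPKM in swimming 1 and swimming 6 and lowest in control 4, at 0.49 FPKM, which was also the lowest tumor for Cxcl1. The next were 1810026B05Rik (0.890), Rack1 (0.865), Kcnk2 (0.861) and Gm13841 (0.855). By this measure Cxcl2 stood at place 87 (0.682), near S100a9 at place 74 (0.691), Il1b at place 86 (0.683) and S100a8 at place 100 (0.674).

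The gene most like S100a9 was Ccl2, the chemokine of monocytes, with an r of 0.921 over 12 tumors, followed by BC031181 (0.897), G0s2 (0.884), M6pr-ps (0.849) and Atp5k-ps2 (0.840). S100a8 stood at place 2 among all genes compared and Cxcr2 at place 13, with an r of 0.800. For Cxcr2 the most alike were Atpaf2 (0.907), G0s2 (0.896), Hp (0.891), Scand1 (0.870) and Atp5k-ps2 (0.861), of which Hp, the haptoglobin gene, was at 78.0 FPKM in control 1. For Il1b they were Fosl2 (0.861), an AP-1 transcription factor, Spata5l1 (0.831), Gm12439 (0.818), Col8a1 (0.805) and Mxd1 (0.804). All points share the same 12 libraries, and pseudogenes such as M6pr-ps and Atp5k-ps2 can share reads with their parent genes.

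**Figure D4:**
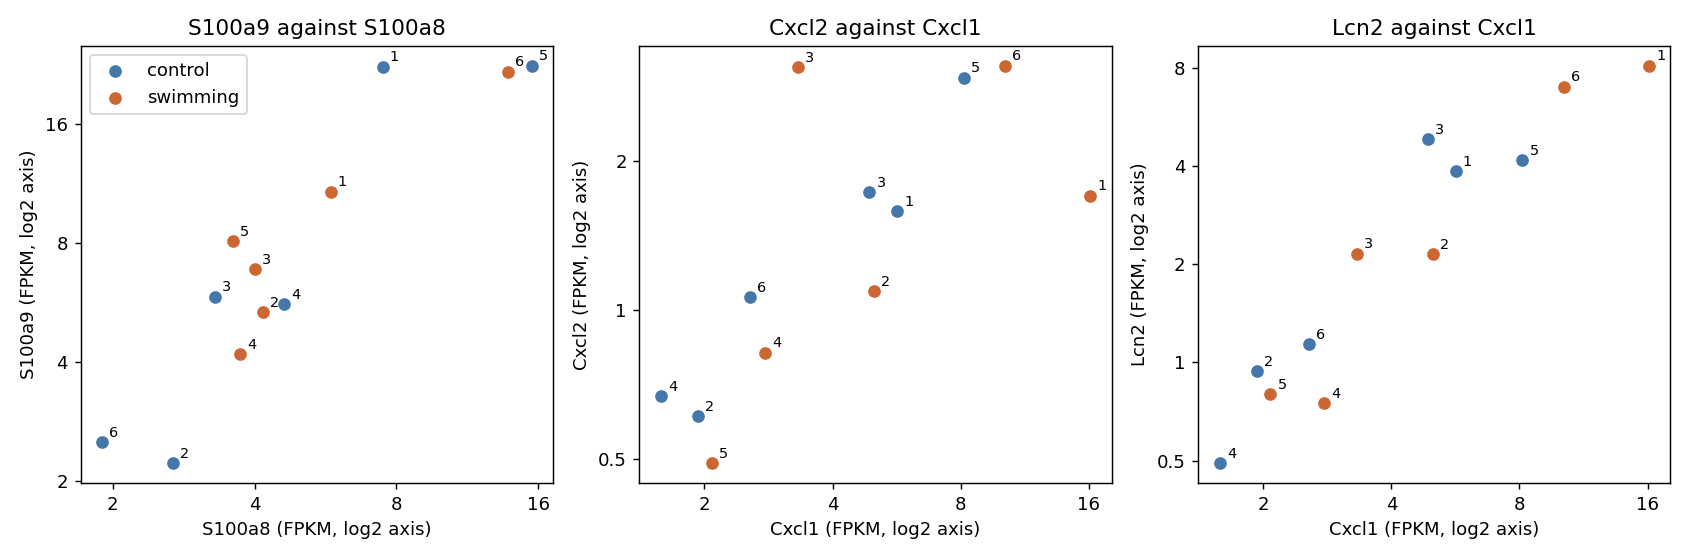
FPKM of S100a9 against S100a8, Cxcl2 against Cxcl1 and Lcn2 against Cxcl1 in 12 tumors (log2 axes; numbers are tumors, blue control, orange swimming). S100a8 with S100a9 (r = 0.915) and Cxcl1 with Lcn2 (r = 0.947) rise along a line, while swimming 1 and swimming 3 leave the line of Cxcl1 with Cxcl2 (r = 0.682).

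Other genes of the neutrophil were mostly not different between the groups. Of the 24 tested, 1 was higher and 1 was lower at an unadjusted p below 0.05 with limma, where 3.11% of all genes tested were higher and 2.46% lower, and the median log2 fold change was 0.081. Acod1, which makes itaconate in activated myeloid cells, was at 1.78 ± 0.830 FPKM in control tumors and 3.91 ± 2.0 FPKM in swimming tumors (SD, n = 6 each; log2 fold change 0.75, SE 0.30, unadjusted p = 0.0249, adjusted p = 0.889 with limma). Trem1, an activating receptor of neutrophils and monocytes, was at 2.17 ± 0.586 and 1.49 ± 0.483 FPKM (log2 fold change -0.36, unadjusted p = 0.0290, adjusted p = 0.889 with limma). The protease gene Ctsg had an estimate of -0.43 (unadjusted p = 0.0797, adjusted p = 0.889 with limma). The summed level of the list was 65.3 to 90.8 FPKM in control tumors and 57.7 to 122 FPKM in swimming tumors.

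Of 9 other chemokines and receptors of the CXC family that act on neutrophils or hold them in the marrow, 8 were listed and tested. At an unadjusted p below 0.05 with limma 0 were higher and 0 lower, against 3.11% and 2.46% of all genes tested. Cxcl12, which holds neutrophils in the marrow, had the smallest p of the list (log2 fold change 0.38, unadjusted p = 0.0800, adjusted p = 0.889 with limma). The estimate of the platelet chemokine Ppbp was -0.27 (adjusted p = 0.895 with limma), and that of Cxcl3 was -0.27 (adjusted p = 0.899 with limma). Cxcl5, a further ligand of CXCR2, was highest in control 1 at 4.65 FPKM and was between 0.40 and 2.71 FPKM elsewhere.

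The IL-1 pathway beside Il1b also had 0 higher and 0 lower of 13 genes tested, with a median log2 fold change of 0.028. Il1rap, a subunit of the IL-1 receptor, was at 2.14 ± 0.350 and 1.77 ± 0.148 FPKM (SD, n = 6 each). For Il1rap 0 of 6 swimming tumors were above the control median (log2 fold change -0.17, unadjusted p = 0.0519, adjusted p = 0.889 with limma). Casp1, the protease that releases mature IL-1β, was at 28.6 ± 4.05 and 33.7 ± 5.30 FPKM (log2 fold change 0.22, unadjusted p = 0.0640, adjusted p = 0.889 with limma). Il1r1, the signalling receptor, was steady at 14.1 ± 0.682 and 14.5 ± 1.5 FPKM.

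Among IL-17, colony-stimulating factors and related signals, 2 of 12 genes tested were higher and 0 lower at an unadjusted p below 0.05 with limma, against 3.11% and 2.46% of all genes tested. Tnf, the gene of the cytokine TNF, was at 1.11 ± 0.370 FPKM in control tumors and 1.85 ± 0.413 FPKM in swimming tumors, and 6 of 6 swimming tumors were above the control median (log2 fold change 0.43, SE 0.13, unadjusted p = 0.0046, adjusted p = 0.889 with limma). Nfkbiz, a co-activator for NF-κB targets, was at 8.68 ± 0.868 and 10.6 ± 1.86 FPKM (log2 fold change 0.25, unadjusted p = 0.0249, adjusted p = 0.889 with limma). Of 10 receptors and relatives of S100A8 and S100A9, 1 was higher and 0 lower, beside the same shares of 3.11% and 2.46%. This was Ager, the receptor RAGE, at 0.276 ± 0.0818 and 0.421 ± 0.115 FPKM (unadjusted p = 0.0370, adjusted p = 0.889 with limma).

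Markers of other cells were measured beside these genes. Of 8 T cell markers, 5 were higher at an unadjusted p below 0.05 with limma and 0 at an adjusted p, where 3.11% of all genes tested were higher, with a summed level of 4.77 to 12.1 FPKM in control tumors and 8.55 to 22.3 FPKM in swimming tumors. Their part in the higher Tnf values was not tested. The 12 macrophage and monocyte markers had 0 genes at an unadjusted p below 0.05 with limma, against 5.56% of all genes tested. Their summed level was 1578 to 2246 FPKM in control tumors and 1644 to 2238 FPKM in swimming tumors. Lyz2 alone was at 744 to 1050 FPKM in control tumors and 687 to 878 FPKM in swimming tumors. Sums of different genes do not measure how many cells of each type a tumor held.

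Markers of keratinocytes, which make S100A8 and S100A9 in inflamed skin, were low. Of 11 keratinocyte markers listed, 8 were below 0.1 FPKM in all tumors, Krt14, Krt1 and Krt6a among them, and the summed level was 1.91 to 3.14 FPKM in control tumors and 2.09 to 2.85 FPKM in swimming tumors. The keratinocyte list and the remaining lists had 0 genes at an unadjusted p below 0.05 with limma, against 5.56% of all genes tested. The summed levels of the remaining lists in the control and swimming groups were 3.20 to 211 and 2.51 to 294 FPKM for skeletal muscle. They were 510 to 1169 and 640 to 1081 FPKM for fibroblasts, and 34.4 to 61.6 and 34.8 to 56.1 FPKM for endothelium. They were 249 to 602 and 153 to 1241 FPKM for blood and platelets, and 10.6 to 66.5 and 14.1 to 36.8 FPKM for mast cells, basophils and eosinophils. For the epithelial and CT-26 markers they were 460 to 738 and 538 to 697 FPKM, most of it from Vim. Vim was at 442 to 724 FPKM in control tumors and 517 to 677 FPKM in swimming tumors. Epcam and Cdh1 reached 0.18 and 0.43 FPKM at most, and Cldn4 and Cldn7 were below 0.1 FPKM in all tumors.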

How the data were processed

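RNA was sequenced by the authors from 12 CT-26 tumors after removal of ribosomal RNA. Per the methods, reads were mapped with HISAT2 2.0.5 and quantified with StringTie 1.3.3. The methods name the human build hg38, the submitters' processing notes hg38 and GRCm38, and the files list mouse Ensembl identifiers. The authors deposited FPKM per gene, already divided by transcript length and sequencing depth, so read numbers and counting error are unknown. Identifiers were matched to GENCODE M21 symbols (30542 of 30630).

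Groups were taken from the labels. The same 6 replicate numbers occur in both groups, but same-numbered tumors are from different mice and are not pairs. No tumor was left out. log2(FPKM + 1) was compared with lmFit and eBayes with trend in limma 3.58.1 (R 4.3.3), as a group difference with no covariate and with Benjamini-Hochberg adjustment over 19018 genes. For single genes a two-sided exact permutation test was added, over the 924 divisions into 6 and 6, whose smallest p is 0.00216. The relations were tested with 100000 two-sided permutations. The limma comparison was tested on simulated data. Files were joined in Python 3.11.15 (pandas 2.3.3), and permutations were drawn with numpy 2.4.6.

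The genes and the lists were chosen with earlier results of these data known, and the adipocyte list after the present values were seen. Named besides the 10 genes were up to 4 genes per list by smallest p, markers at or near 0, and the 5 genes with a mean of at least 1 FPKM most alike to S100a9, Cxcr2, Il1b and Cxcl1. Lcn2, Cxcl5, Cxcl3, Il1r1, Mmp9, Fpr2, Clec4d, Mmp8, Retn, Adipoq and the genes given for a single tumor that stands apart were named, where outside this rule, after their values were seen. Alternatives were pseudocounts of 0.1 and 0.01, no filter, a filter of 1 FPKM, quantile normalization, trimmed mean scaling, no trend, sample weights, the replicate block and leaving out each tumor. A gene that this rule names among the other neutrophil genes is not reported here. Promoter sequences were available here for 9 of the 10 genes from RefSeq, all but Csf3.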

Additional observations from a re-analysis of the deposited data

Results flagged for a closer look

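In a group of 6 tumors a value was picked out when its gap to the nearest other tumor was above the critical share of the group's range (Dixon's test). This was done for 60 genes named in the text or list, in 118 groups, and 20 values were picked out. Chance flags about 1 in 20 groups where values are normally distributed, but the test was run on FPKM without a log scale. Where all other tumors are at 0, as for Ly6g, any value above 0 is picked out. Part of these genes were also named after their values were seen, so the 20 values cannot be set against that rate.

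Of the 10 genes described, control 1 stood apart for Csf3r (4.33 FPKM), Ly6g (0.18 FPKM) and Retnlg (2.65 FPKM), swimming 6 for S100a8 (13.81 FPKM) and swimming 1 for Ly6g (0.06 FPKM, the other swimming tumors being at 0). Control 1 also stood apart for Hp (77.96 FPKM), Atpaf2 (12.51 FPKM), Mxd1 (3.26 FPKM), Adipoq (12.62 FPKM), Cfd (102.59 FPKM) and Cxcl5 (4.65 FPKM). Swimming 5 stood apart for Hp (22.84 FPKM), Adipoq (3.69 FPKM), Ackr1 (0.61 FPKM), Ngp (0.38 FPKM) and C1qa (515.23 FPKM). Hp, Adipoq and Cfd are genes that fat cells express, and their part in the other values of control 1 was not tested.

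Swimming 6 stood apart for M6pr-ps (1.88 FPKM) and for Tlr4, the receptor through which S100A8 and S100A9 signal, which was at 1.08 FPKM there and at 7.07 FPKM or more in the other 11 tumors. Control 4 stood apart for Pycard (2.55 FPKM) and swimming 3 for Elane (0.18 FPKM).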

How the results depend on the processing

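Against 0 of the 10 genes at an unadjusted p below 0.05 as reported, 1 passed with a pseudocount of 0.1, with a pseudocount of 0.01, with quantile normalization and under the replicate block. In each case this was Retnlg, with log2 fold changes of -1.01, -1.23, -0.44 and -0.43 and unadjusted p of 0.0323, 0.0313, 0.0493 and 0.0369 with limma. Leaving out each tumor in turn gave 0 to 2 such genes. Retnlg passed without control 4, control 6 or swimming 4, and Il1b passed only without swimming 4, with an unadjusted p of 0.0415 in limma. The estimate of Retnlg was -0.50 to -0.23 in these fits, weakest without control 1.

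The direction of S100a8 turned without control 2 (-0.021), control 6 (-0.090) or swimming 6 (-0.14), over a range of -0.14 to 0.41. S100a9 turned without control 2 (-0.071), control 6 (-0.045) or swimming 6 (-0.064), over a range of -0.071 to 0.50. Cxcr2 turned without control 2 (-0.0076, range to 0.13), and Cxcl2 without swimming 3 (-0.016) or swimming 6 (-0.017), with a range up to 0.28. The median of the tested genes ranged from 0.0054 to 0.34. The cause was not tested. Other settings moved estimates by over 1.5 times without a call, with S100a8 at 0.16 (pseudocount 0.01) and 0.22 (sample weights), S100a9 at 0.33 and Cxcr2 at 0.080 (sample weights), and the median of the tested genes at 0.24 and 0.25 (pseudocounts 0.1 and 0.01).

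Genes at an adjusted p below 0.05 numbered 0 as reported, 1 with sample weights and 0 to 3 with a tumor left out (3 without control 4, 2 without swimming 1). The lists held 10 genes at an unadjusted p below 0.05, and 7 to 16 with a tumor left out (16 without control 1). Other neutrophil genes numbered 1 to 4 (2 as reported, most without swimming 1), IL-1 genes 0 to 2, IL-17 and colony-stimulating factor genes 1 to 3, S100 receptors and relatives 0 to 1, and T cell markers 4 to 8. Of 6 relations, 4 had an adjusted p below 0.05 as reported and 1 to 6 with a tumor left out. With a pseudocount of 0.01, Cxcr2 with Csf3r was lost (r = 0.548, adjusted permutation p = 0.0636), while Cxcr2 with S100a8 passed (0.652, 0.0424) and Csf3 with Cxcl1 passed (0.614, 0.0424).

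The replicate numbers share no animal, and same-numbered tumors deviated together no more than others (mean r -0.12 against 0.025), so the block is no pairing. With it, 892 genes had an unadjusted p below 0.05 against 1058 without. FPKM values set no counting error, which limits Ly6g, Csf3 and Cxcr2 most.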
